A study of Mus musculus with 12 samples.

Results

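The CD4 and CD8 coreceptors and their regulators are represented here by 6 genes, Cd4, Cd8a, Cd8b1, Gata3, Satb1 and Runx1. Every probe set annotated to these names was taken, whatever its level. Each gene has 1 probe set on the array, so 6 of the 12422 probe sets that are not controls, and 6 of the 8251 genes they represent, belong to the group. Expression was measured in thymus cell suspensions on 12 Affymetrix arrays, of which 8 held leukemic cells from C57Bl/6 mice with the genotype TEL-JAK2 and 4 held thymocytes from wild-type mice of the same strain. TEL-JAK2 is a fusion of the transcription factor TEL with the tyrosine kinase JAK2. The leukemic mice were terminally ill, and the labels do not state their age, whereas the wild-type mice were 2 months old. The promoter that drives TEL-JAK2 was not stated either. No group received a treatment, and the suspensions were not described as sorted. The arrays are numbered in accession order within each group, a number that pairs no samples, and nothing in the labels states outright that each array is a separate animal. The p-values therefore measure the spread between these samples, whose number limits the precision.

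Developing T cells enter the thymus without either coreceptor, pass through a double-positive stage that carries both, and then keep one of them. CD4 binds MHC class II and CD8 binds MHC class I, and both bring the kinase Lck to the T-cell receptor. The CD8 coreceptor of thymocytes is a pair of the alpha chain, encoded by Cd8a, and the beta chain, encoded by Cd8b1. RUNX proteins silence Cd4 in CD8-lineage cells, GATA3 is needed for the CD4 lineage, and SATB1 organizes chromatin at many genes of developing T cells.

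Values are log2 intensities of RMA-normalized probe sets, and a difference is leukemia minus thymocyte on that scale unless a fold is given. Array medians lay between 66.48 and 70.18 on the linear scale. The arrays correlated at 0.990 to 0.997 over probe sets within thymocytes, at 0.961 to 0.993 within leukemias and at 0.955 to 0.980 across the groups. As a check of the tissue label, the 7 measured T-cell markers were read. Cd3d, Cd3e, Cd3g and Thy1 did not pass the test between the groups, Cd2 rose by 1.38 (limma adjusted p = 2.39e-06), and Cd5 and Cd247 fell, with -2.33 and -0.93 (limma adjusted p = 0.000492 and 0.000898). Cd3d passed when leukemias 1 and 7 were left out, with 0.37 (limma adjusted p = 0.0474). Leukemias 1 and 7 stood lowest for several of the genes described here, so the differences of the 6 genes and the counts of the gene lists are also given without them, a choice made after seeing the data.

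Of the 6 genes, Cd4 and Satb1 fell in leukemia, 0 rose, and Cd8a, Cd8b1, Gata3 and Runx1 did not pass the test (limma at 0.05 after Benjamini-Hochberg adjustment across the array). Among all probe sets, 14.5% passed, 9.88% lower and 4.65% higher in leukemia. Cd4 was 3.7-fold and Satb1 3.81-fold lower, and for both genes all 8 leukemias lay below all 4 thymocyte arrays, as was the case for 8.11% of all genes. The other members had differences between -0.58 and -0.45, with leukemias on both sides of the thymocyte range. The median difference over all genes was 0.00366. With leukemias 1 and 7 left out, Cd4 and Satb1 again fell and the other members again did not pass, where 11.0% of all genes fell and 5.87% rose.

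**Figure D1:**
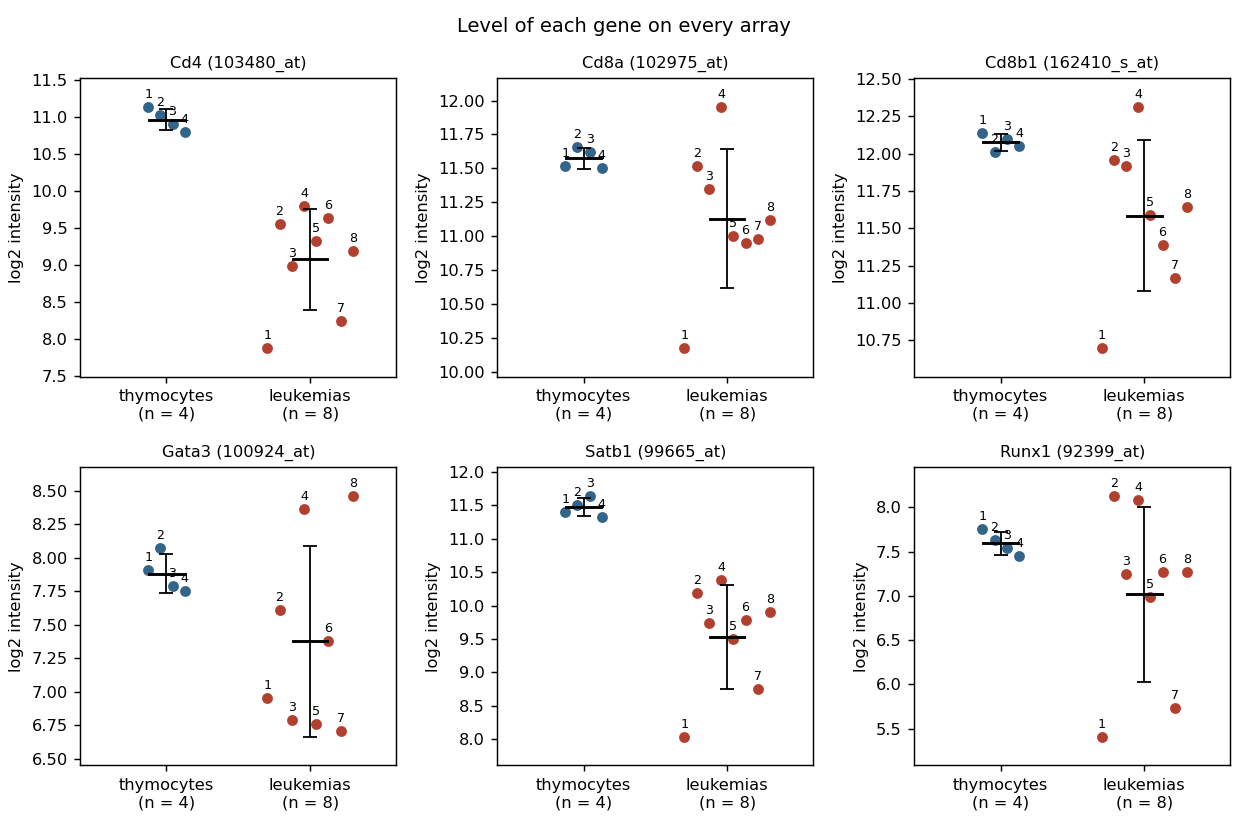
Log2 intensity (vertical axes) of Cd4, Cd8a, Cd8b1, Gata3, Satb1 and Runx1 on each of 4 thymocyte arrays (blue) and 8 leukemia arrays (red). Each point is 1 array with its number, and bars are the mean and SD of the group. Cd4 and Satb1 have no overlap between the groups, and for the other genes leukemia 4 lies above every thymocyte array while leukemia 1 lies below all of them.

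The thymocyte arrays gave the coreceptor gene Cd4 (103480_at) log2 levels of 11.13, 11.02, 10.90 and 10.80. In leukemias 1 to 8 it had 7.88, 9.55, 8.98, 9.80, 9.32, 9.63, 8.24 and 9.19. The groups did not overlap, and leukemias 1 and 7 were the lowest. The thymocyte mean was 10.96 ± 0.14 (SD, n = 4) and the leukemia mean 9.07 ± 0.68 (SD, n = 8), for a difference of -1.89 (SE 0.31, 95% interval -2.55 to -1.22, limma adjusted p = 0.00101). The fold interval ran from 2.33 to 5.87. The 6 other leukemias alone gave -1.55 (limma adjusted p = 2.98e-05). In a bulk suspension, fewer cells of a type and less RNA per cell cannot be told apart, which holds for every gene here.

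The alpha chain gene Cd8a (102975_at) had log2 levels of 11.52, 11.66, 11.62 and 11.50 in the thymocyte arrays. In leukemias it ranged from 10.18 in leukemia 1 through a median of 11.06 to 11.95 in leukemia 4. Of the 8 leukemias, 6 lay below the thymocyte range, 1 within it and 1 above it. The difference of -0.45 (SE 0.23) did not pass (limma adjusted p = 0.254), and its 95% interval of -0.95 to 0.06 reaches from nearly a halving to no fall.

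The beta chain gene Cd8b1 lies next to Cd8a on chromosome 6 with 0 protein-coding genes between them (RefSeq, GRCm38.p6). Its probe set 162410_s_at has a suffix that marks probes shared by several transcripts. Its log2 levels were 12.14, 12.01, 12.10 and 12.05 in the thymocyte arrays. In leukemias they ran from 10.70 in leukemia 1 through a median of 11.61 to 12.31 in leukemia 4. Leukemias 1, 7 and 6 were the lowest, 7 of 8 lay below the thymocyte range and 1 above it. The difference was -0.49 (SE 0.23, 95% interval -0.98 to 0.01, limma adjusted p = 0.2). Leaving out leukemias 1 and 7 gave Cd8a and Cd8b1 differences of -0.26 and -0.27 (limma adjusted p = 0.397 and 0.304), over 1.5 times smaller than with them.

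To ask whether the coreceptor genes changed unequally, their log2 values were subtracted within each array, and the groups were compared with an exact two-sided permutation test over all assignments of the arrays. The log2 difference of Cd4 minus Cd8a was -0.39, -0.64, -0.72 and -0.71 in the thymocyte arrays. In leukemias 1 to 8 it was -2.30, -1.97, -2.37, -2.14, -1.69, -1.32, -2.73 and -1.93. All 8 leukemias lay below all thymocyte arrays, leukemia 7 farthest and leukemia 6 nearest. The thymocyte mean was -0.62 ± 0.15 (SD, n = 4) and the leukemia mean -2.06 ± 0.44 (SD, n = 8). Cd4 was thus 2.72-fold lower relative to Cd8a in leukemia (log2 -1.44, 95% interval -1.96 to -0.94, exact permutation p = 0.00202, the smallest this test can give, and 0.00303 adjusted over 3 pairs). Against Cd8b1, Cd4 was 2.64-fold lower (log2 -1.40, 95% interval -1.86 to -0.93, the same exact p), with 8 of 8 leukemias below. With leukemias 1 and 7 left out these values were -1.29 and -1.28 (exact permutation, both adjusted p = 0.00714), and that of Cd8a minus Cd8b1, described next, was 0.01.

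Between the CD8 chains no such difference was detected. Cd8a minus Cd8b1 had a thymocyte mean of -0.50 ± 0.12 (SD, n = 4) and a leukemia mean of -0.46 ± 0.13 (SD, n = 8). The difference of 0.04 had a 95% interval of -0.12 to 0.21 (exact permutation p = 0.6, also 0.6 adjusted over the 3 pairs). Leukemia 7, at -0.20, was the only one above the thymocyte range of -0.62 to -0.35, and none lay below it.

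**Figure D2:**
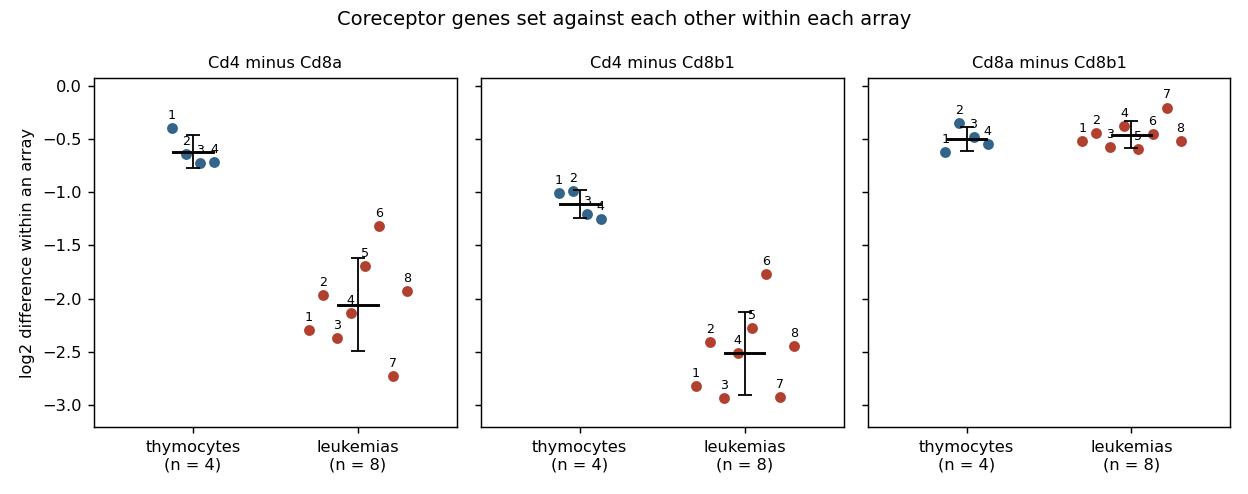
Log2 difference between 2 coreceptor genes within an array (vertical axis) for Cd4 minus Cd8a, Cd4 minus Cd8b1 and Cd8a minus Cd8b1, on 4 thymocyte arrays (blue) and 8 leukemia arrays (red). Points are arrays with their numbers and bars are mean and SD. The first and second differences are lower in every leukemia, with means of -2.06 against -0.62 and -2.51 against -1.11, and the third overlaps between the groups.

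Among the regulators, the chromatin organizer gene Satb1 (99665_at) had log2 levels of 11.40, 11.51, 11.64 and 11.33 in the thymocyte arrays. Leukemias 1 to 8 gave 8.04, 10.19, 9.74, 10.38, 9.50, 9.78, 8.75 and 9.90. As for Cd4, leukemias 1 and 7 were lowest, leukemia 4 was highest and no leukemia reached the thymocytes. The thymocyte mean was 11.47 ± 0.14 (SD, n = 4) and the leukemia mean 9.53 ± 0.78 (SD, n = 8), for a difference of -1.93 (SE 0.35, 95% interval -2.68 to -1.18, limma adjusted p = 0.0021). Over the 6 other leukemias it was -1.55 (limma adjusted p = 3.9e-05).

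Runx1 encodes a DNA-binding subunit of core-binding factor, and it had log2 levels (92399_at) of 7.76, 7.63, 7.54 and 7.45 in the thymocyte arrays. In leukemias 1 to 8 the values were 5.41, 8.13, 7.25, 8.08, 6.99, 7.27, 5.73 and 7.27. Leukemias 2 and 4 lay above every thymocyte array and the other 6 below all of them, with leukemias 1 and 7 far under the rest. Leukemia 1 was under the control level of its array, the 95th percentile of 15 bacterial control probe sets, which was 5.77 there, so its value and the mean that includes it are bounds. The difference was -0.58 (SE 0.44, 95% interval -1.53 to 0.37, limma adjusted p = 0.462). Leukemias 1 and 7 left out, it was -0.10 (limma adjusted p = 0.856). The SD over leukemias was 0.98 against 0.13 in thymocytes, and 99.3% of genes had a smaller SD over the leukemias. For the other members this share ran from 95% (Cd8b1) to 98.4% (Satb1), so a wide spread was not particular to Runx1.

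Gata3, the gene of a zinc-finger transcription factor (100924_at), had log2 levels of 7.91, 8.07, 7.79 and 7.75 in the thymocyte arrays. In leukemias 1 to 8 it had 6.95, 7.61, 6.79, 8.36, 6.76, 7.38, 6.71 and 8.46. Leukemias 4 and 8 lay above the thymocytes and the other 6 below, an order that differs from that of the other members. The difference was -0.50 (SE 0.32, 95% interval -1.20 to 0.19, limma adjusted p = 0.367), and -0.32 without leukemias 1 and 7 (limma adjusted p = 0.63). The 4 leukemias with the lowest Gata3, numbers 1, 3, 5 and 7, had 11.09, 11.42, 11.02 and 12.22 for the granule protease gene Gzmb. In leukemias 2, 4, 6 and 8 Gzmb was at 6.38, 6.23, 5.88 and 7.96. Gzmb was outside the naming rule, and a link to Gata3 was not tested. Linear levels summed over B-cell markers were also highest in leukemias 1, 3, 5 and 7, at 1092, 1164, 1470 and 1586. The others had 781 to 997. Macrophage sums were 3168, 4394 and 5075 in leukemias 3, 5 and 7. Leukemia 1, at 1698, lay far below these and barely above the others, which had 1174 to 1688. Dendritic cell sums did not split in this way, with 2508 in leukemia 2 and 2238 in leukemia 1.

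**Figure D3:**
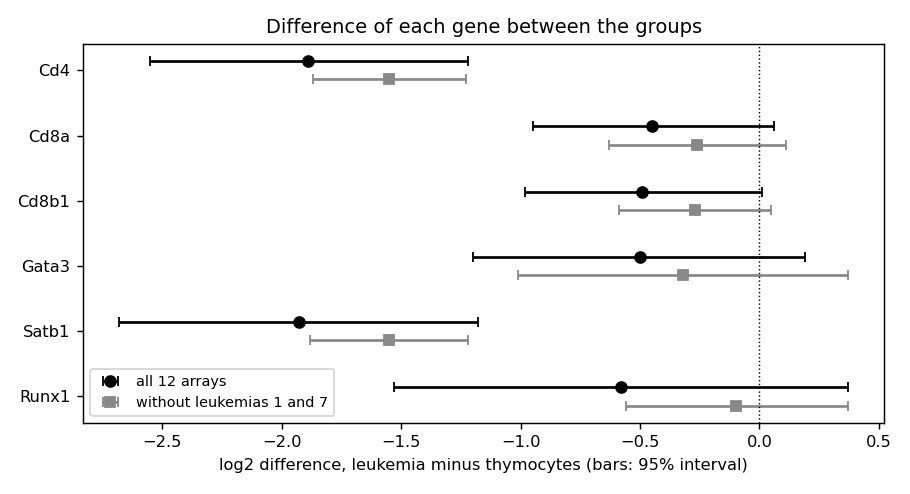
Log2 difference between leukemias and thymocytes (horizontal axis) for each gene, with 95% intervals of the limma fit, over all 12 arrays (circles) and without leukemias 1 and 7 (squares). The intervals of Cd4 and Satb1 lie below 0 in both, from -2.55 to -1.22 and from -2.68 to -1.18 over all arrays, and the intervals of Cd8a, Cd8b1, Gata3 and Runx1 include 0.

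Because Runx1 and Gata3 encode DNA-binding factors, promoter windows of the members were searched on both strands for 3 kinds of letters. TGTGGT stands for a RUNX match. A GATA match is AGATAA, and TGATAA was counted as one too. An E-box, which E proteins bind, was written as CANNTG. RefSeq windows of GRCm38.p6, 250 bases before to 50 after a transcript start, matched 4 of the 6 genes, with 1 window for Cd8a, 1 for Gata3, 5 for Satb1 and 2 for Runx1. Of 32544 distinct windows of this length, 16.7% held the RUNX letters, 18.5% the GATA letters and 72.3% an E-box. The member windows held 0 GATA matches, and RUNX matches lay only in the first window of Runx1, which has 2. The 250 bases before the start of Cd8a are shown for the coreceptors, those of the third Satb1 window since it has the most E-boxes, and those of the first Runx1 window with the stretch that holds its RUNX letters. Capitals mark matches, which are E-boxes in the first 3 sequences and RUNX letters, read on the opposite strand as ACCACA, in the last. An E-box that crosses the start of Cd8a and those after the start of the Satb1 window are not shown. A match here is a description of letters, not of binding.
Cd8a, chr6:71373177-71373426, plus strand: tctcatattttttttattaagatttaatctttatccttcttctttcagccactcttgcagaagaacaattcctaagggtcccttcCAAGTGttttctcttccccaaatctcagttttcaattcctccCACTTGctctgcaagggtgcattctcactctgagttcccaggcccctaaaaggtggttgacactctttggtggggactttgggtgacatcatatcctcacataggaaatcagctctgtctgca
Satb1, chr17:51826589-51826838, minus strand: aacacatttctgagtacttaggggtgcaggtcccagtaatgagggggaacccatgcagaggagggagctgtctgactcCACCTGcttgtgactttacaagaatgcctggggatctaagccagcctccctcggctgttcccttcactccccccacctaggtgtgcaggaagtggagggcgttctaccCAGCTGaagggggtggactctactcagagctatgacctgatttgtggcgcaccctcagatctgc
Runx1, chr16:92826075-92826324, minus strand: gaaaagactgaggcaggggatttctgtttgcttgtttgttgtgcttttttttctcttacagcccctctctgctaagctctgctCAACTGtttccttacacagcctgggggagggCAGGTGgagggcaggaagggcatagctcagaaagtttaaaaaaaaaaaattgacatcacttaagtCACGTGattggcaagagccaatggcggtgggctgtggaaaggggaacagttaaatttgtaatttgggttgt
Runx1, bases 23 to 50 after the start, chr16:92826025-92826052, minus strand: taaacaACCACAgaACCACAagttgggt

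Across the 8 leukemias, several members were lowest or highest on the same arrays, though the order was not shared throughout. Counted from the lowest, leukemia 6 had rank 7 for Cd4 and 2 for Cd8a, and Gata3 was highest in leukemia 8. Leukemia 1 was the lowest for Cd4, Cd8a, Cd8b1, Satb1 and Runx1, and leukemia 4 the highest for Cd4, Cd8a, Cd8b1 and Satb1. In leukemia 1 the shift from the thymocyte mean was -3.42 for Satb1, -3.08 for Cd4, -1.40 for Cd8a, -1.37 for Cd8b1 and -0.93 for Gata3, and Runx1 was under the control level. In leukemia 7 it was -2.72 for both Satb1 and Cd4, -1.87 for Runx1, -1.17 for Gata3, -0.90 for Cd8b1 and -0.60 for Cd8a. In leukemia 4 Cd4 and Satb1 were still shifted by -1.16 and -1.09, whereas Runx1, Gata3, Cd8a and Cd8b1 were shifted by 0.49, 0.47, 0.37 and 0.24.

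**Figure D4:**
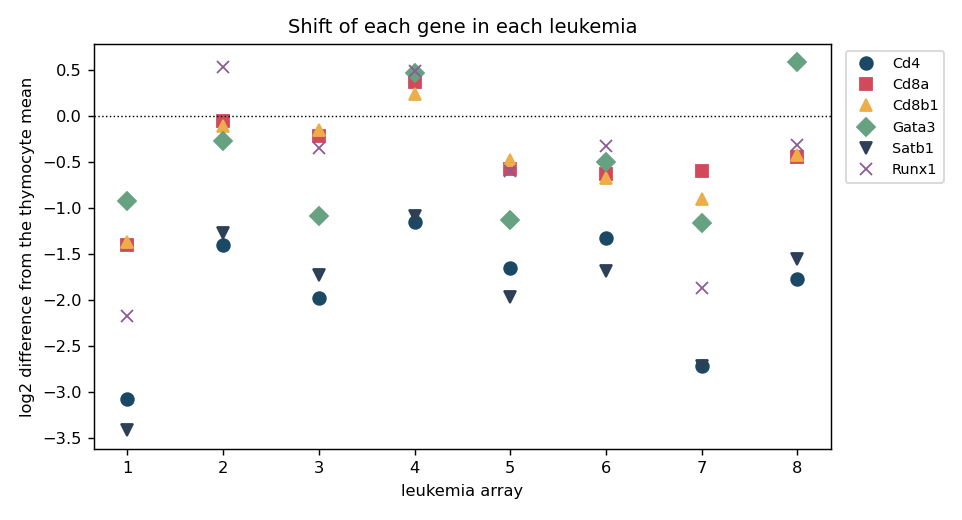
Log2 difference of each gene from its mean over the 4 thymocyte arrays (vertical axis) in each of the 8 leukemia arrays (horizontal axis), 1 marker shape per gene. Cd4 and Satb1 lie below 0 in every leukemia, from -3.08 to -1.16 and from -3.42 to -1.09, and all 6 genes lie lower in leukemias 1 and 7 than in leukemia 4. Runx1 in leukemia 1 is under the control level.

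Correlations over the 8 leukemias were given only where neither gene fell into separate clusters, taken as a gap of over 40% of the range, which left 3 of 15 pairs. The largest gaps of Runx1, Cd8a and Gata3 were 46.4%, 43.4% and 42.8%. For Cd4 and Satb1, r after Pearson was 0.947 (exact permutation p = 0.00151, 0.00227 when adjusted over the 3 pairs) and Spearman rho = 0.833 (exact permutation p = 0.0154, adjusted 0.0231). When leukemias 1 and 7 were left out, r was 0.634 (exact permutation p = 0.182, n = 6). The relation was thus not detected without those arrays, and 6 arrays give little power. Cd8b1 and Satb1 had r = 0.930 (exact permutation p = 0.000719, adjusted 0.00216) and rho = 0.881 (exact permutation p = 0.00724, adjusted 0.0217), with r = 0.796 without leukemias 1 and 4 (exact permutation p = 0.0458). Cd4 and Cd8b1 had r = 0.822 (exact permutation p = 0.0108, adjusted 0.0108) and rho = 0.667 (exact permutation p = 0.0831, adjusted 0.0831). That relation was not detected without leukemias 1 and 7 either, where r was 0.277 (exact permutation p = 0.596, n = 6). Titles with a number of 4 digits and titles without one mark 4 leukemias each, too few to repeat this within them.

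Markers of other cells also differed between these arrays, and their part in the results was not tested. Levels were summed over each marker list on the linear scale. Leukemia 4, where most members were highest, had the lowest sums of all leukemias for macrophage (1174), dendritic cell (1636), B cell (781), NK cell (48), erythroid (969), thymic epithelium (438) and stromal genes (416), and the highest T-cell sum (12266). Macrophage sums reached 5075 in leukemia 7, but were 1698 in leukemia 1, close to the thymocyte range of 1225 to 1589. Both arrays stood above all others for the endothelium and fibroblast sum, at 589 and 648. It was 416 to 459 in the other leukemias and 453 to 490 in thymocytes. Of this list, Col1a1, Col3a1, Dcn and Kdr were higher in leukemias 1 and 7 than in any other leukemia. Pecam1, Cdh5 and Tie1 lay within the range of the other 6. Leukemias 1 and 7 also had the highest NK cell sums, at 81 and 74 against 48 to 64 and 58 to 60. The NK cell genes were all near the control level, so this order is uncertain. T-cell sums were 8542 and 9454 in leukemias 1 and 7, against 9384 to 12266 in the other leukemias and 10332 to 11269 in thymocytes. Cd3e was at 10.88 and 10.99 in leukemias 1 and 7, against 10.22 to 11.34 in the other 6 and a thymocyte mean of 11.18. Thy1 was lowest in both arrays, at 11.41 and 11.60 against 11.65 to 12.20 in the other 6. Cd3d and Cd247 were lowest there too. Cd5 was highest there, and Cd3g and Cd2 lay within the range of the other 6.

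Between the groups, 0 of 12 macrophage, 2 of 8 dendritic cell, 0 of 9 B cell, 0 of 3 NK cell and 0 of 3 erythroid markers rose, and none of them fell. Of 7 thymic epithelium markers 1 rose and 2 fell, and of 7 endothelium and fibroblast markers 0 changed. With leukemias 1 and 7 left out, 0 of 8 dendritic cell markers rose, Dcn alone of the endothelium and fibroblast list fell, and the counts of the macrophage, B cell, NK cell, erythroid and thymic epithelium lists were as before. Summed dendritic cell levels ran from 1636 to 3273 in leukemias and from 1557 to 1666 in thymocytes, those of B cells from 781 to 1586 and 843 to 878, and those of erythroid genes from 969 to 6099 and 3187 to 6720. All 3 NK cell genes, Klrd1, Ncr1 and Klrk1, were near the control level in both groups. Thymic epithelium sums ran from 438 to 629 and 539 to 629. Near the control level in both groups were also Adgre1 and Mrc1, Zbtb46, Ebf1, Car1, Epcam, Krt14, Krt18 and Foxn1, and Cdh5, Kdr, Tie1 and Dcn. The brightest markers of each list had log2 differences of 0.63 for C1qc and 0.77 for Mpeg1, 0.86 for Cst3 and -0.15 for Ccl22, 0.70 for Cd79a and -0.01 for Cd79b, 0.01 for Klrd1 and 0.10 for Klrk1. For Hba-a1 and Alas2 they were -0.81 and -0.28, for Krt8 and Krt5 -0.09 and 0.07, for Col1a1 and Pecam1 0.04 and -0.01, and for Thy1 and Cd3e -0.31 and -0.19. Of these 16, Cst3 alone passed (limma adjusted p = 0.0483), and not with leukemias 1 and 7 left out.

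Other transcription factors of lineage choice and their partners were read from a list of 26 genes, 17 of them on the array. Runx2 and Runx3 were among those not on it, so Runx1 alone stands for the RUNX genes here. Of these, 4 fell, 0 rose and 13 did not pass, with a median difference of -0.25, where 11.4% of all genes fell and 5.15% rose. The zinc-finger homeobox gene Zeb1, a repressor that can act on Cd4, fell to 6.95 ± 0.31 (SD, n = 8) from 7.89 ± 0.11 (SD, n = 4), by a log2 difference of -0.94 (SE 0.15, limma adjusted p = 0.00081). Lef1, a high-mobility-group factor of the Wnt pathway, fell by 0.82 on the log2 scale (limma adjusted p = 0.00181). Tle3, a Groucho corepressor that RUNX proteins recruit, fell by 0.47 (limma adjusted p = 0.0125). Cbfb, the subunit that RUNX proteins need for stable DNA binding, fell by 0.32 (limma adjusted p = 0.0449). It no longer passed without leukemias 1 and 7 (limma adjusted p = 0.0858), when 5 genes of the list fell. Zbtb7b, the CD4-lineage factor ThPOK, had means of 7.17 in thymocytes and 7.15 in leukemias (difference -0.03, SE 0.16, limma adjusted p = 0.949). It was singled out after its values were seen.

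A list of chromatin cofactors that act at the coreceptor genes or with RUNX and SATB1 had 14 measured members. Of these 8 fell, 0 rose and 6 did not pass, against 11.4% of all genes that fell and 5.15% that rose. The 14 differences ran from -0.92 to -0.06 with a median of -0.42. The remodelling ATPase gene Smarca4 fell to 9.13 ± 0.40 (SD, n = 8) from 10.04 ± 0.08 (SD, n = 4), by a log2 difference of -0.91 (SE 0.19, limma adjusted p = 0.00466). The histone deacetylase genes Hdac2 and Hdac1 fell, with log2 differences of -0.92 and -0.45 (limma adjusted p = 0.00468 and 0.00888). Mta2, a subunit of the NuRD complex, fell by 0.38 (limma adjusted p = 0.001). With leukemias 1 and 7 left out, 8 of the 14 fell.

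Of 15 measured ligands and signalling partners of the coreceptors, 3 rose, 2 fell and 10 did not pass, with a median of 0.07. Beside 11.4% of all genes that fell, 2 of 15 is a share near the background, and 5.15% of all genes rose. With leukemias 1 and 7 left out, 4 rose, Cd3d now among them, and 2 fell. The 3 risers over all arrays belong to MHC class I, the ligand of CD8. B2m, its light chain, rose by 1.51 (SE 0.08, limma adjusted p = 8.4e-08), and the heavy chain genes H2-D1 and H2-K1 rose, H2-D1 by 1.59 (limma adjusted p = 8.07e-06) and H2-K1 2.83-fold (limma adjusted p = 2.8e-05), on probe sets that related genes may share. Cd247, the zeta chain of the receptor, fell by 0.93 (limma adjusted p = 0.000898), and Il16, whose product binds CD4, fell by 0.83 (limma adjusted p = 0.0122). The MHC class II genes H2-Aa, H2-Ab1 and H2-Eb1, for the ligand of CD4, had differences of 1.32, 0.97 and 1.08. They did not pass (limma adjusted p = 0.0667, 0.137 and 0.0938), with SDs over leukemias of 0.98, 0.87 and 0.86. Il16 and these class II genes were outside the naming rule.

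The stage markers give the setting in which the coreceptor genes were read. Of 10 double-positive genes 6 fell and 0 rose, with a median of -2.06, where 11.4% of all genes fell and 5.15% rose. Ets2 and Ccr9, an ETS factor and a thymic chemokine receptor, fell, with log2 differences of -2.88 and -2.86 (limma adjusted p = 1.59e-06 and 0.000927). So did Rag2, of the receptor gene recombinase, with -2.39 (limma adjusted p = 4.03e-05). Ccr9 in leukemia 1 and Rag2 in leukemias 1, 7 and 8 were under the control level of the array, so these sizes are bounds. Leukemia means of the repressor gene Bcl6 were near the control level, which makes it lower by at least 7.35-fold (limma adjusted p = 5.55e-07). With leukemias 1 and 7 left out, 8 fell and 1 rose, with a median of -1.27. This list was composed with earlier results of these arrays known.

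Of 9 double-negative genes 1 rose and 0 fell, with a median of 0.15, and the same shares of all genes apply, 5.15% higher and 11.4% lower. It was Il2ra, a chain of the interleukin-2 receptor that SATB1 is known to repress, at least 2.59-fold higher, since thymocytes were near the control level (limma adjusted p = 3.52e-05). Lyl1, Dtx1 and Kit had differences of 0.82, 0.70 and 0.49 and did not pass (limma adjusted p = 0.155, 0.201 and 0.141). Thymocytes were near the control level for Lyl1 and Kit, and Kit was under it in leukemias 1, 3, 6, 7 and 8. The sizes for Lyl1 and Kit are therefore uncertain. Without leukemias 1 and 7, 2 of the 9 rose and the median was 0.49. Of 8 single-positive genes 1 rose and 3 fell, with a median of -0.21, again beside 5.15% and 11.4% of all genes. The integrin gene Itgb7 rose by 1.84 (limma adjusted p = 0.000819). The surface receptor genes Cd5, Cd6 and Cd27 fell, with log2 differences of -2.33, -1.32 and -0.47 (limma adjusted p = 0.000492, 6.42e-06 and 0.0373). Cd27 did not pass without leukemias 1 and 7 (limma adjusted p = 0.0885), which left 2 that fell.

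The genes most like a member in pattern were sought for Cd4, Satb1 and Runx1, whose log2 values ranged over more than 2 units. The measure was the root mean square difference of log2 values over the 12 arrays, each gene centred on its own mean. It pools both groups, so similar group differences, such as -1.89 for Cd4 and -1.93 for Satb1, bring genes closer. To Cd4, Satb1 itself was nearer (0.22) than any gene outside the members, and Cd4 lay at 0.69 to Runx1, 0.73 to Cd8b1, 0.76 to Cd8a and 0.82 to Gata3. Outside the members, Plxnd1 (0.31), a semaphorin receptor gene, Ephb6 (0.34), of the ephrin receptor family, and Rmnd5a (0.35) came closest to Cd4, where the median gene lay at 1.05. Their log2 differences between the groups were -1.67, -1.93 and -2.44, a direction fixed by choosing genes close to Cd4 on these same arrays. Nearest to Satb1 were Rmnd5a (0.35), Ccng2 (0.35), of the cyclin G family, and Gtf2h4 (0.36), a subunit gene of the general factor TFIIH. For Ccng2 and Gtf2h4 the differences were -1.44 and -1.61, fixed in direction in the same way. Nearest to Runx1 were Cdca7 (0.20), Zfp62 (0.23) and Aldh7a1 (0.28). Cdca7 had 7.74 and 7.84 in leukemias 1 and 7, the same low pair as Runx1, and 9.26 to 10.26 in the other 6. That shared pair follows from choosing genes close to Runx1 on these same arrays. Its difference between the groups was -0.66. Zfp62 in leukemias 1 and 7 and Runx1 in leukemia 1 were under the control level.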

How the data were processed

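The authors deposited 1 intensity per probe set and array on a linear scale, computed by RMA (per the submitters' processing notes); the RMA version was not stated. All 12488 values of each array were above 0 and were converted to log2. After leaving out 66 control probe sets, 12422 were tested. In the platform annotation, 1 gene is named for 10833, several for 396 and none for 1193, and RefSeq names (GRCm38.p6) were found for 10817 of the 10833. A gene in a list is read from its brightest probe set by mean.

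Groups were compared by a moderated two-sided test without covariates (lmFit, eBayes; limma 3.58.1 under R 4.3.3), with Benjamini-Hochberg adjustment over all probe sets and a threshold of 0.05. The fit was tested on simulated data. Exact permutation tests used the absolute difference of means, and their 95% intervals hold the shifts not rejected at 0.05. A gene is near the control level in a group whose mean lies under the mean 95th percentile of 15 bacterial controls. "At least" folds replace values under that percentile by it.

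The members and lists were chosen with earlier results of these data known. The naming rule takes all members, up to 4 genes of each list with the largest moderated statistic, the brightest 2 of each marker list and the 3 genes nearest in pattern. Alternatives covered normalization, variance, filters, arrays left out, and title numbers.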

Additional observations from a re-analysis of the deposited data

How the results depend on the processing

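Cd4 and Satb1 kept their direction and passed the test under every alternative run except in the arrays without a title number of 4 digits (4 leukemias, 1 thymocyte array), where the differences were -2.06 and -2.21 (limma adjusted p = 0.342 and 0.347). The lone thymocyte array there is assumed to vary like the leukemias. Within the arrays with such a number they were -1.60 and -1.56 (limma adjusted p = 0.00074 and 0.00144). Cd8a, Cd8b1, Gata3 and Runx1 stayed negative and did not pass under any alternative run, but their sizes moved. In the arrays with a 4-digit number and in those without one, Runx1 was -0.03 and -1.03, Cd8a -0.15 and -0.70, Cd8b1 -0.13 and -0.82, and Gata3 -0.55 and -0.38. Runx1 was -0.35 with the title number as a block and -0.35 without leukemia 1. Cd4 minus Cd8a and Cd4 minus Cd8b1 were -1.37 and -1.24 in the arrays without a 4-digit number (exact permutation, adjusted p = 0.3 for both), where 1 thymocyte array cannot reach the threshold, and -1.46 and -1.47 in those with one (adjusted p = 0.0429 for both, exact permutation). Cd8a minus Cd8b1 was -0.01 in the latter. The count of 1805 probe sets past the threshold was 13 in the arrays without a 4-digit number and 1008 at an adjusted p under 0.01. With single arrays left out in turn, 1162 to 2044 probe sets passed (1162 without thymocyte array 1 and 1185 without thymocyte array 2). The differences were -1.99 to -1.72 for Cd4 and -2.05 to -1.72 for Satb1. Of the relations, 0 to 3 pairs passed, since the rule on gaps left fewer pairs without leukemia 1, 3, 4, 5 or 7. Leukemias 1 and 7 were both among the arrays without a 4-digit number. Several of these settings held fewer arrays, and the cause of these moves was not tested. No paired analysis was possible because the labels give the groups no shared replicate numbers.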

Other observations

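Some genes of the double-positive stage and its regulators were far lower in leukemias 1 and 7 than in the other 6. They were singled out after their values were seen. For Rag1, Dntt and Myb, all 8 leukemias still lay below all thymocyte arrays. Rag1, of the receptor gene recombinase, was at 4.86 and 7.99 in leukemias 1 and 7, against 9.93 to 11.06 in the other 6 and 11.83 to 11.99 in thymocytes. The level in leukemia 1 is under the control level of that array, so the difference of -2.50 is a bound. It did not pass over all arrays (limma adjusted p = 0.0906) and was -1.50 without these leukemias (limma adjusted p = 0.000228). Dntt, which adds bases at receptor gene joints, was at 7.53 and 8.30 there and reached 11.12 in the other leukemias, with -1.72 over all arrays and -1.03 without them (limma adjusted p = 0.0716 and 0.00214). The transcription factor gene Myb was at 7.45 and 8.91, against 10.13 to 11.13 in the other 6 and 11.16 to 11.43 in thymocytes. Its difference was -1.25 over all arrays and -0.63 without leukemias 1 and 7 (limma adjusted p = 0.174 and 0.0287). Cd24a, a surface glycoprotein gene of immature thymocytes, was at 8.14 and 8.84 in leukemias 1 and 7 and at 10.16 to 11.67 in the other 6, of which 5 lay above the thymocyte range of 9.88 to 10.26. Its difference was 0.34 over all arrays (limma adjusted p = 0.78) and 0.99 without leukemias 1 and 7 (limma adjusted p = 0.0192).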
